A study of Mus with 9 samples.

Results

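Dbi and 6 fatty acid-binding proteins, Fabp1, Fabp2, Fabp3, Fabp4, Fabp5 and Fabp7, were described across the 3 groups of a study of trigonelline (TG) in the mouse hippocampus. TG is a plant alkaloid known from coffee, fenugreek and radish. The 7 genes were chosen by gene symbol among the 22206 probe sets of a Clariom S Mouse array, which carry 21978 distinct symbol entries, and each had 1 probe set. Dbi and Fabp2 were selected on their higher average with TG, so their difference in that comparison is a description and supports nothing further.

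The groups were SAMR1 mice, which age normally and served as the ageing control, SAMP8 mice, a senescence-accelerated inbred strain, and SAMP8 mice given TG by mouth at 5 mg/kg for 30 days. The mice were male and are given as 16 weeks old in the study, which does not state their age when the tissue was taken. An acclimatization period came before dosing. All were trained in the Morris water maze, and TG was kept up over 8 days of behavioural testing. The other 2 groups received vehicle, which is saline in the sample records and water in the methods. SAMP8 and SAMR1 are related strains with different genomes, so strain and ageing cannot be told apart in their comparison. The sample records list 3 arrays per group, 9 in all, while the series text speaks of 2 RNA samples per group.

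Dbi, the acyl-CoA-binding protein, holds long-chain acyl-CoA esters in the cytosol and delivers them to the enzymes that use them. The same protein is known as diazepam-binding inhibitor, since it and the peptides cut from it act at GABA-A receptors and at the mitochondrial protein Tspo. The fatty acid-binding proteins are small barrel-shaped carriers that keep fatty acids soluble and pass them to membranes, enzymes and nuclear receptors. They are named after tissues, Fabp1 after liver, Fabp2 after intestine, Fabp3 after heart, Fabp4 after adipocytes, Fabp5 after epidermis and Fabp7 after brain. In the brain, Dbi and Fabp7 are known from astrocytes and neural progenitors, Fabp3 from mature neurons and Fabp5 from neurons and glia.

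The processed tables hold 1 average per group on the log2 scale and no value per array. The p-values of the authors' own comparisons were not used, and the averages by themselves give no spread, interval or test. Every difference below is between the authors' averages and stands beside the differences of all 22206 probe sets. A probe set is called past the limit where its averages differ by more than 1.5-fold, 0.58 on the log2 scale. Since probes differ in brightness, a higher signal of one gene than of another does not show more RNA, and levels served only to find probe sets of like signal and to say where a signal was low.

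Dbi was lowest in SAMP8 and highest in TG-treated SAMP8. Its averages were 9.09 in SAMR1, 8.48 in SAMP8 and 9.63 with TG, on the log2 signal scale. The TG-treated average was 1.15 above SAMP8 on the log2 scale, a 2.22-fold difference, and 36 of all probe sets (0.162%) were at least as much higher, Dbi included. Among 1643 probe sets within 0.5 log2 of the mean level of Dbi, the 5th to 95th percentile of the same difference ran from -0.64 to 0.54.

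The average of Dbi in SAMP8 was 0.61 log2 below SAMR1, a 1.53-fold difference just past the limit, and 0.56 below, inside it, with each group centred on its median over all probe sets. At like level 2.25% of the probe sets were at least as much lower, around a median of 0.14, and over all probe sets 5.65% were. This comparison shares the SAMP8 average with the one on which Dbi was selected, so a low SAMP8 average enters both. TG-treated SAMP8 and SAMR1, which do not share it, differed by 0.54 log2 (1.45-fold), inside the limit. At like level 12.1% of the probe sets were at least as much higher in TG-treated SAMP8, and over all probe sets 6.82% were. The probe set of Dbi covers a gene at chr1:120113280-120121096 in GRCm38.

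**Figure D1:**
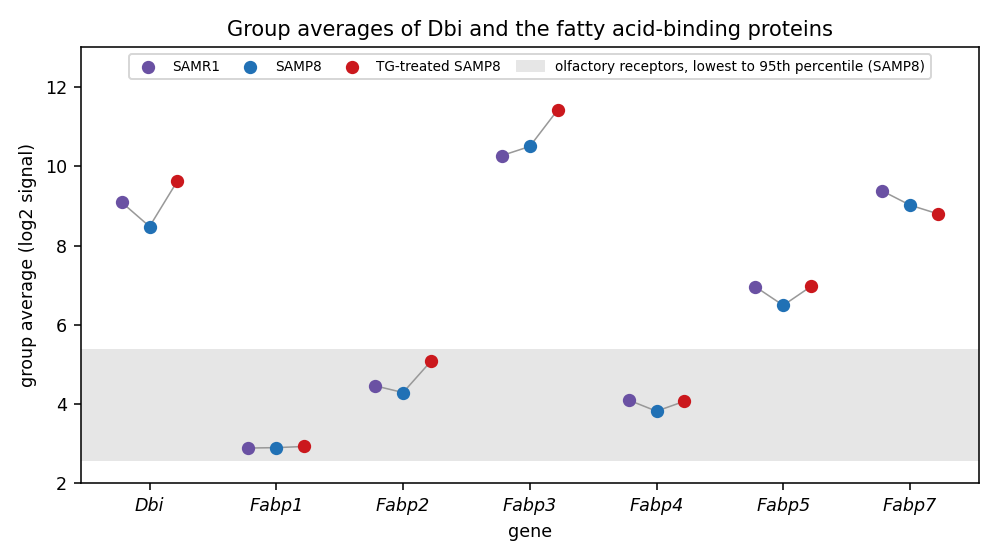
Authors' group average (log2 signal, y axis) of Dbi and the 6 fatty acid-binding proteins (x axis) in SAMR1, SAMP8 and TG-treated SAMP8, 1 point per group and no error bars since only averages are given; the grey band runs from the lowest to the 95th percentile of the olfactory receptor probe sets in SAMP8 (2.58 to 5.37). Dbi goes from 8.48 in SAMP8 to 9.63 with TG and Fabp3 from 10.50 to 11.42, while Fabp1, Fabp2 and Fabp4 lie within the band.

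Fabp3, the heart-type carrier known from mature neurons, had averages of 10.27 in SAMR1, 10.50 in SAMP8 and 11.42 with TG. The TG-treated average was the highest, 0.92 log2 (1.89-fold) above SAMP8 and 1.15 log2 (2.22-fold) above SAMR1. Against SAMP8, 169 probe sets (0.761%) were at least as much higher, and against SAMR1 151 were (0.68%). SAMP8 and SAMR1 lay 0.23 log2 apart (1.17-fold), so unlike Dbi the SAMP8 average of Fabp3 was not the lowest of the 3. Among 1111 probe sets of like level, the TG difference ran from -0.63 to 0.50 between the 5th and 95th percentile. Fabp3 lies at chr4:130308738-130315463.

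Fabp2, the intestinal carrier, had averages of 4.46 in SAMR1, 4.29 in SAMP8 and 5.08 with TG. The TG-treated average was 0.79 log2 (1.73-fold) above SAMP8 and 0.62 log2 (1.54-fold) above SAMR1, both past the limit, and SAMP8 was 0.17 log2 below SAMR1. With averages centred on the median level of the neuron markers, both differences were inside the limit, at 0.57 and 0.53 log2. The difference from SAMP8 was reached or passed by 346 probe sets (1.56%), and by 1.54% of the 4078 probe sets of like level. Fabp2 lies at chr3:122895072-122899506.

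Fabp2, with Fabp1 and Fabp4, gave low signal. Olfactory receptor genes, whose transcripts belong mainly to the nasal epithelium, were taken as a description of low signal after their values had been seen. Their 1079 probe sets had medians of 4.12 in SAMR1, 3.99 in SAMP8 and 4.09 with TG, with 95th percentiles of 5.51, 5.37 and 5.37. The averages of Fabp1, Fabp2 and Fabp4 lie under those percentiles in each group, which, as probes differ in brightness, does not show whether their transcripts were present. With TG against SAMP8, 5.65% of the olfactory receptor probe sets were past the limit and higher and 2.04% past it and lower. For SAMP8 against SAMR1 the shares were 1.2% higher and 8.71% lower. A difference of more than 1.5-fold thus also occurs at such signal.

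Fabp1, the liver carrier, was nearly flat, at 2.89 in SAMR1, 2.90 in SAMP8 and 2.93 with TG. Fabp4, the carrier of adipocytes, macrophages and capillary endothelium, had averages of 4.10, 3.82 and 4.07 in the same order. The SAMP8 average of Fabp4 was thus the lowest, 0.28 log2 below SAMR1 and 0.25 log2 below TG-treated SAMP8, and neither difference was past the limit.

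Fabp5, the epidermal carrier found in neurons and glia, had averages of 6.96 in SAMR1, 6.49 in SAMP8 and 6.97 with TG. It lay 0.47 log2 lower in SAMP8 than in SAMR1 and 0.48 log2 higher with TG than in SAMP8, 1.39-fold each, both inside the limit. The SAMR1 and TG-treated averages lay 0.01 log2 apart. Over all probe sets, 9.62% were at least as much lower in SAMP8 than in SAMR1, and 7.81% at least as much higher with TG.

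Fabp7, the brain carrier of astrocytes and progenitors, was the member with a lower average in TG-treated SAMP8 than in SAMP8. Its averages were 9.38 in SAMR1, 9.02 in SAMP8 and 8.80 with TG. SAMP8 lay 0.36 log2 (1.28-fold) below SAMR1 and TG-treated SAMP8 0.22 log2 (1.16-fold) below SAMP8. The TG-treated average was 0.58 log2 (1.49-fold) below SAMR1, just inside the limit, and 5.06% of all probe sets were at least as much lower. It was past the limit with averages quantile-normalized (-0.66) or centred on the median level of the neuron markers (-0.68). Dbi and Fabp7, both known from astrocytes and progenitors, thus differed in the sign of the TG difference. On the log2 scale it was 1.15 for Dbi, which was selected on it, and -0.22 for Fabp7.

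**Figure D2:**
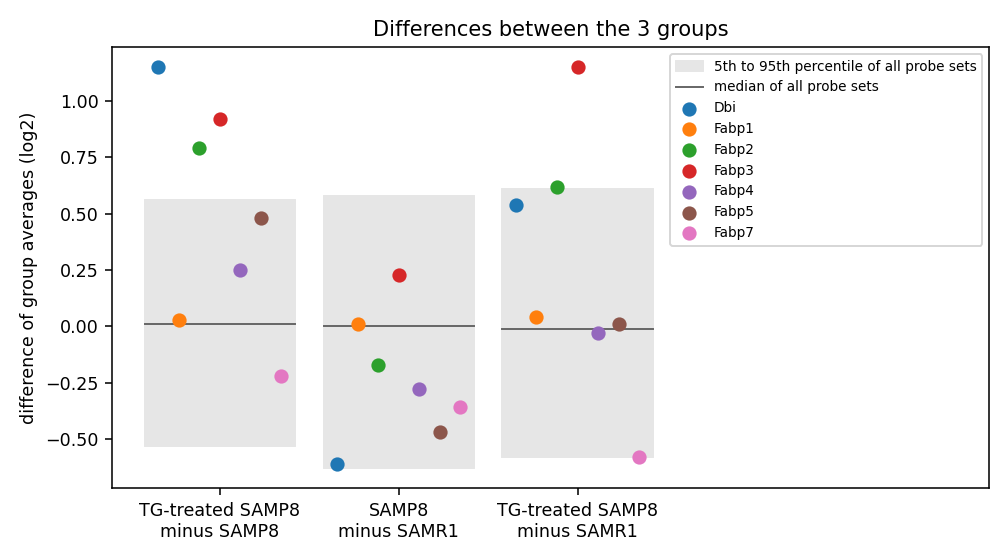
Difference of the authors' group averages (log2, y axis) of each of the 7 genes in the 3 comparisons (x axis), over the 5th to 95th percentile (grey) and the median (line) of all 22206 probe sets. Against SAMP8, TG-treated SAMP8 shows Dbi (1.15), Fabp3 (0.92) and Fabp2 (0.79) above the grey range; Fabp3 is at 1.15 against SAMR1, and SAMP8 against SAMR1 shows Dbi at -0.61.

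Counted together, 6 of the 7 genes were higher in TG-treated SAMP8 than in SAMP8, and Fabp7 was lower. Dbi, Fabp2 and Fabp3 were higher past the limit, beside 4.48% of all probe sets, and none was lower past it, beside 3.74%. The median of the 7 differences was 0.48 log2, against 0.01 over all probe sets. This count includes the 2 genes selected on it, and nothing is read from it. Of the other 5, Fabp3 was past the limit, 4 were higher and the median was 0.25.

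Between SAMP8 and SAMR1, 5 of the 7 genes were lower in SAMP8, and Fabp1 and Fabp3 were higher. Dbi was lower past the limit, beside 6.08% of all probe sets, and none was higher past it, beside 5.0%. The median of the members was -0.28 log2 and that of all probe sets 0.00. Between TG-treated SAMP8 and SAMR1, 5 genes were higher and 2 lower. Fabp2 and Fabp3 were higher past the limit, beside 5.62% of all probe sets, and none was lower past it, beside 4.83%. The member median was 0.04 log2, against -0.01 over all probe sets. With 7 genes, 1 or 2 past the limit is a count that single probe sets decide.

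The sets of differences were not independent, since the SAMP8 average stands in 2 of the 3 comparisons. Dbi, Fabp4 and Fabp5 had their lowest average in SAMP8 and so did Fabp2, whereas Fabp1 and Fabp3 had theirs in SAMR1 and Fabp7 in TG-treated SAMP8. Which neighbours in each order differ beyond the spread between arrays is not given here, since no spread was computed.

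**Figure D3:**
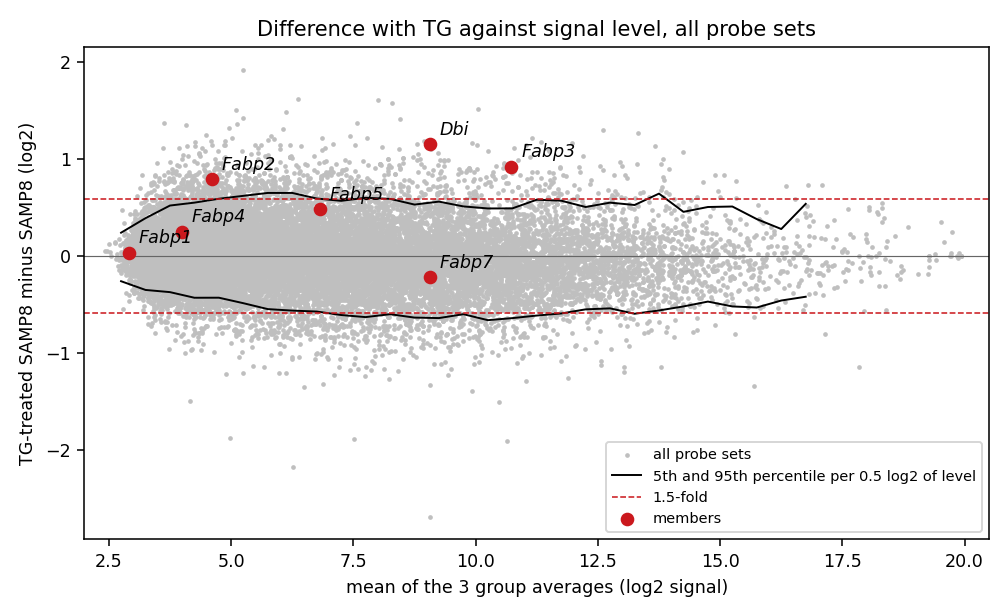
Difference between the TG-treated SAMP8 and SAMP8 averages (log2, y axis) against the mean of the 3 group averages (log2 signal, x axis) for all 22206 probe sets (grey), with the 5th and 95th percentile per 0.5 log2 of level (black lines), the 1.5-fold limit (dashed) and the 7 genes (red). Dbi (1.15), Fabp3 (0.92) and Fabp2 (0.79) lie above the upper line at their level, Fabp7 (-0.22) below 0 and between the lines.

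The 7 genes are short. Their genomic spans ran from 3.53 kb for Fabp7 to 7.82 kb for Dbi. The probe sets of 2649 genes in that range had a median TG difference from SAMP8 of 0.06 log2, with 5.44% past the limit and higher and 1.93% past it and lower. In the 13984 longer genes the median was -0.03, with 2.87% higher and 4.76% lower. The TG difference was thus higher in this range than in the longer genes, and genes shorter than the range were not summarised. Between SAMP8 and SAMR1 the order was the other way, with medians of -0.02 in the range and 0.04 in the longer genes. The part of span in the values of the 7 genes was not tested. Set against probe sets of like span and like level, 0% of 173 were as much higher with TG as Dbi, 1.94% of 566 as Fabp2 and 4.41% of 68 as Fabp3. Dbi and Fabp2 were selected on this difference, and the background was chosen after seeing the data, so their shares support nothing further. For the lower Dbi average in SAMP8 than in SAMR1, which shares the SAMP8 average with the selection, 1.73% of the same 173 were at least as much lower. For TG-treated SAMP8 against SAMR1, which does not share it, 19.1% of the 173 were at least as much higher as Dbi.

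Fabp4 and Fabp5 have neighbours of their own family. On chromosome 3 the 5 protein-coding genes between 10012585 and 10301515, a stretch of 288.9 kb, are Fabp5, Pmp2, Fabp9, Fabp4 and Fabp12, all of this family. Fabp5 lies at chr3:10012585-10016610 and Fabp4 at chr3:10204342-10208616. The TG difference from SAMP8 was 0.48 log2 for Fabp5, 0.37 for Pmp2, -0.41 for Fabp9, 0.25 for Fabp4 and 0.37 for Fabp12, none past the limit. In SAMP8 against SAMR1 all 5 were lower, by 0.47, 0.59, 0.52, 0.28 and 0.10 log2 in the same order, and Pmp2, a carrier of peripheral myelin, was past the limit. Pmp2, Fabp9, the testis carrier, and Fabp12 averaged between 3.22 and 4.25 over the groups. Fabp2 lies on the same chromosome but far from this stretch. Of the other members, Fabp1 lies at chr6:71199879-71205034 and Fabp7 at chr10:57784923-57788450.

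Of 9 further intracellular lipid-binding proteins taken here, 8 had a probe set under their symbol alone. None was past the limit between TG-treated SAMP8 and SAMP8, where 5 were higher and 2 lower around a median of 0.16 log2. Between SAMP8 and SAMR1, 7 of the 8 were lower in SAMP8 around a median of -0.40. That median was -0.21 without the lowest 25% of averages and -0.28 with averages raised to a floor. Olfactory receptor probe sets, of low signal, also leaned lower in SAMP8, with 690 lower and 369 higher. Pmp2 and Crabp1, a cytosolic carrier of retinoic acid, were past the limit, and Crabp1 averaged 3.89 in SAMR1, 3.09 in SAMP8 and 3.43 with TG. Fabp9 was past it between TG-treated SAMP8 and SAMR1, at 3.22 against 4.15.

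The remaining relatives stayed inside the limit in all 3 comparisons. Fabp6, the ileal bile acid carrier, averaged 4.78 in SAMR1, 4.89 in SAMP8 and 4.49 with TG. The retinol carrier Rbp2 was at 5.26, 4.94 and 5.00 in the same order, and Rbp7 at 7.30, 6.81 and 6.81. Crabp2, a further retinoic acid carrier, was at 5.49, 5.39 and 5.64.

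**Figure D4:**
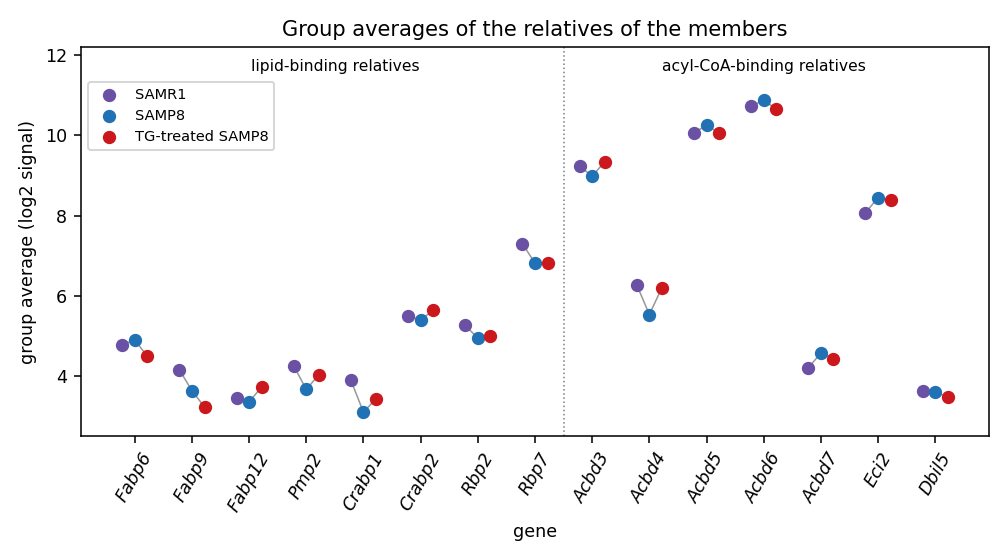
Authors' group average (log2 signal, y axis) of the 8 lipid-binding relatives and the 7 other proteins with an acyl-CoA-binding domain (x axis) in the 3 groups, 1 point per group. Acbd4 is lowest in SAMP8 (5.53, against 6.27 in SAMR1 and 6.20 with TG), and the lipid-binding relatives lie between 3.09 and 7.30.

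Dbi shares its acyl-CoA-binding domain with 7 listed proteins, all on the array. Acbd4, a peroxisomal membrane protein, had averages of 6.27 in SAMR1, 5.53 in SAMP8 and 6.20 with TG. It was past the limit in both comparisons with SAMP8, 0.74 log2 lower than SAMR1 and 0.67 log2 lower than TG-treated SAMP8. As in Dbi, SAMP8 had the lowest average, but here SAMR1 had the highest. The other 6 were inside the limit. Acbd3, a Golgi protein, was at 9.24, 8.98 and 9.35 in SAMR1, SAMP8 and TG-treated SAMP8, and the peroxisomal protein Acbd5 at 10.06, 10.26 and 10.06. Acbd6 was at 10.73, 10.88 and 10.66, Acbd7 at 4.20, 4.57 and 4.43, and the testis paralog Dbil5 at 3.63, 3.60 and 3.46. Eci2, an isomerase of fatty acid oxidation with such a domain, was at 8.07, 8.45 and 8.40. The median of the 7 was -0.14 log2 with TG against SAMP8, while Dbi, which was selected on this difference, was at 1.15.

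Among the proteins at which Dbi and its peptides act, 6 were taken here, Tspo and the GABA-A receptor subunits Gabra2, Gabra3, Gabra5, Gabrg1 and Gabrg3, and the counts hold for these 6 alone. Gabra2 (14.19 in SAMP8, 13.46 with TG) and Gabrg1 (8.41 and 7.79) were lower past the limit in TG-treated SAMP8, 0.73 and 0.62 log2 below SAMP8. The other 4 stayed inside it, between 0.03 and 0.58 log2 below SAMP8. Tspo, the mitochondrial partner, averaged 4.59 in SAMR1, 4.97 in SAMP8 and 4.55 with TG. Dbi itself, selected on this comparison, was 1.15 log2 higher in it.

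Against SAMR1, Gabra5, a subunit abundant in the hippocampus, was higher past the limit in SAMP8, at 15.35 in SAMR1 and 16.04 in SAMP8, and the other 5 lay between 0.01 and 0.38 log2 higher, inside it. Gabra2 and Gabrg1 were 0.65 and 0.61 log2 lower in TG-treated SAMP8 than in SAMR1. Gabra3 and Gabrg3 stayed inside the limit throughout.

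The enzymes and receptors to which the carriers pass their ligands were taken as 7 further lists, and with the relatives and the Dbi targets the 10 lists held 109 probe sets. In TG-treated SAMP8 against SAMP8, 5 of the 109 were higher past the limit (4.59%) and 6 lower (5.5%). Over all probe sets the shares were 4.48% and 3.74%. The median of the 109 was -0.01 log2. The nuclear receptors that fatty acids or retinoids bind had a median of 0.08. Pparg, a fatty acid receptor of adipocytes and macrophages, was at 5.96 in SAMR1, 5.99 in SAMP8 and 6.59 with TG, and Nr1h2, an oxysterol receptor, at 7.18, 7.39 and 8.21. Both were higher past the limit with TG, as was Rxrb, their partner receptor, against SAMR1 alone (6.95 and 7.55). The known targets of the PPAR receptors outside the 7 genes had a median of 0.02, and Ucp2, a mitochondrial carrier protein, was lower with TG, at 9.44 in SAMP8 and 8.72.

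In beta-oxidation the median of 20 genes was 0.02 log2 with TG. Acadm, the medium-chain acyl-CoA dehydrogenase, was higher past the limit (7.89 in SAMP8, 8.51 with TG). Cpt1a, which carries out the first step of acyl import into mitochondria, was lower past it (6.81 and 6.20). In fatty acid uptake and release, Mfsd2a, the transporter of lysolipids carrying docosahexaenoic acid at the blood-brain barrier, averaged 7.76 in SAMR1, 8.75 in SAMP8 and 7.73 with TG. SAMP8 was 0.99 log2 above SAMR1, and TG-treated SAMP8 1.02 below SAMP8. The signs of both differences were opposite to those of Dbi. The acyl-CoA synthetase Acsl1, which supplies the ligand of Dbi, was at 7.96, 8.17 and 7.56, lower past the limit with TG against SAMP8. Over the 9 synthetases the median was 0.0 log2, with 4 higher and 4 lower. In steroid synthesis Srd5a2, a steroid reductase, was higher past the limit with TG (4.05 and 4.72), at signal under the 95th percentile of the olfactory receptors. The 9 genes of that list had a median of -0.1 log2, with 4 higher and 5 lower. No gene of the fatty acid synthesis list was past the limit with TG against SAMP8.

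Between SAMP8 and SAMR1, the median of the 109 was 0.13 log2. Past the limit, 8 were higher (7.34%) and 6 lower (5.5%), beside 5.0% and 6.08% of all probe sets. Of the 7 carriers described here, 5 were lower in SAMP8. All 12 genes of the list of fatty acid uptake and release were higher in SAMP8, around a median of 0.31, Mfsd2a past the limit. In beta-oxidation 15 of 20 were higher around a median of 0.22. Hadha (9.82 in SAMR1, 10.70 in SAMP8), Hadh (6.50 and 7.17) and Echs1 (7.73 and 8.33), enzymes of the mitochondrial spiral, were past the limit. Elovl6, a fatty acid elongase, was higher (9.81 and 10.58), as were Ucp2 (8.60 and 9.44) and the steroid reductase Srd5a1 (5.13 and 5.87). Angptl4, an inhibitor of lipoprotein lipase (5.77 and 4.99), Cidea, a lipid droplet protein (6.47 and 5.63), and Hsd3b2, a steroid dehydrogenase (4.55 and 3.93), were lower.

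Between TG-treated SAMP8 and SAMR1, 8 of the 109 were higher past the limit (7.34%) and 4 lower (3.67%), beside 5.62% and 4.83% of all probe sets. They include Acadm, 1.03 log2 higher, Echs1, 0.96 higher, and Acadl, the long-chain dehydrogenase, 0.62 higher. The fatty acid transporter Slc27a4 was 0.65 log2 higher, Acly, which makes acetyl-CoA for lipid synthesis, 0.67 higher, and Nr1h2 1.03 higher. Cidea was 0.84 log2 lower.

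**Figure D5:**
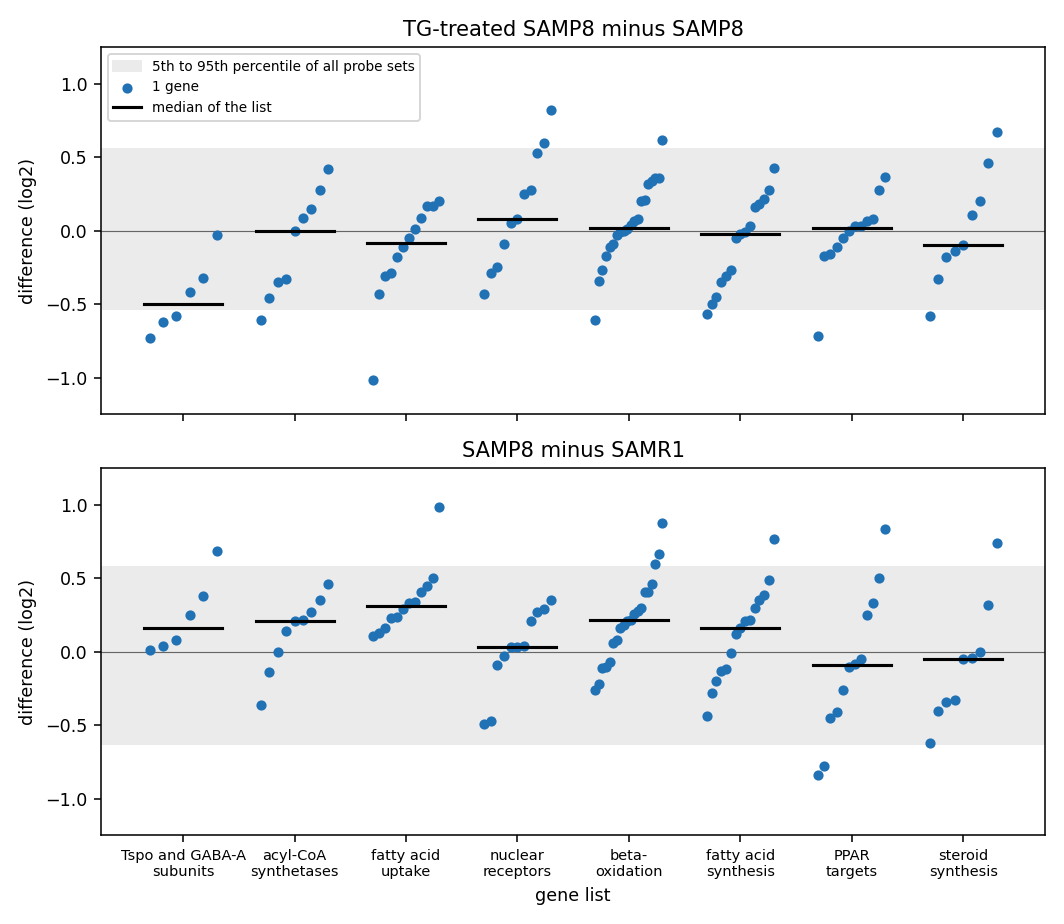
Difference of the authors' group averages (log2, y axis) of each gene of 8 lists (x axis), upper panel TG-treated SAMP8 minus SAMP8, lower panel SAMP8 minus SAMR1; points are genes, bars the list medians, and grey the 5th to 95th percentile of all probe sets. The list labelled fatty acid uptake holds genes of uptake and release. Mfsd2a, in that list, is at -1.02 in the upper and 0.99 in the lower panel, and the median of the list is at -0.08 and 0.31.

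The tissue label was set against marker lists of 12 cell types or regions, since Dbi and the carriers mark different cells. Neuron markers averaged from 11.56 to 19.70 in SAMP8, with Syt1 and Snap25 at the top, and the hippocampal marker Neurod6 was at 14.86 in SAMR1, 14.85 in SAMP8 and 14.88 with TG. In bulk tissue, fewer cells of a type and less RNA per cell cannot be told apart.

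Of the 10 astrocyte markers, the cell type of Dbi and Fabp7, none was past the limit with TG against SAMP8, with 5 higher and 5 lower around a median of 0.01 log2. Their lowest, median and highest averages were 7.73, 11.30 and 18.36 in SAMR1, 7.72, 11.90 and 18.40 in SAMP8 and 7.98, 11.75 and 18.37 with TG. The glutamate transporter Slc1a2 and the glycolytic enzyme Aldoc were the highest, and Aldoc was at 16.30, 16.76 and 17.28. In SAMP8 against SAMR1, 2 were higher past the limit, Gfap, the filament protein of reactive astrocytes (11.08 and 12.03), and Slc1a3, a glutamate transporter (11.14 and 11.76), where Dbi and Fabp7 were lower by 0.61 and 0.36 log2. Aldoc, Gfap and Sox9 were past it with TG against SAMR1.

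The 9 progenitor markers had medians of 7.24 in SAMR1, 7.26 in SAMP8 and 7.42 with TG, with 7 of 9 higher with TG than in SAMP8 and none past the limit in any comparison. Sox11 and Sox2 were the highest, Sox2 at 8.37, 8.36 and 8.71. Of the 8 neuron markers, among them the cells of Fabp3, none was past the limit with TG against SAMP8, and their median difference was 0.12 log2, against 0.92 for Fabp3. In SAMP8 against SAMR1, Stmn2 was 0.64 log2 higher and Map2 0.66 lower, and with TG against SAMR1 Tubb3 was 0.77 higher and Map2 0.61 lower. All 8 endothelial markers, among the cells of Fabp4, were lower with TG than in SAMP8, by 0.04 to 0.50 log2, and Flt1 was higher in SAMP8 (9.38) than in SAMR1 (8.72).

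Enterocyte markers, the cell type of Fabp2, ranged from 3.85 to 6.75 in SAMP8, with Lct at 6.91 in SAMR1, 6.75 in SAMP8 and 7.09 with TG. Their median difference with TG was -0.01 log2, against 0.79 for Fabp2, which was selected on it. Apoa4 and Slc5a1 were higher past the limit, each by 0.68, and Mttp and Apob lower, by 0.71 and 0.62, all at averages between 3.94 and 6.41. Adipocyte markers (3.17 to 5.02 in SAMP8) and hepatocyte markers (3.38 to 5.42), the cell types of Fabp4 and Fabp1, had none past the limit with TG against SAMP8.

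Markers of tissue beside the hippocampus, and of other cells within it, also differed. Of 10 meninges markers 4 were lower past the limit with TG than in SAMP8, beside 3.74% of all probe sets. They were Fmod at 6.09 and 4.21, Ogn at 8.53 and 7.43, Dcn at 10.15 and 9.38 and Slc22a6 at 5.62 and 4.96. Over the list 4 were higher and 6 lower, around a median of -0.16 log2. The choroid plexus marker Ttr was at 8.45, 9.33 and 10.05 in SAMR1, SAMP8 and TG-treated SAMP8, while Kl was at 6.17, 6.84 and 6.05. Of 8 oligodendrocyte markers, 7 were higher with TG than in SAMP8, around a median of 0.34 log2, and Mag was past the limit (6.66 and 7.37). Of 8 microglia markers 4 were higher and 4 lower, around a median of 0.13, with C1qa past the limit (4.41 and 5.08), and the hippocampal marker Prox1 was lower (11.85 and 11.00). The part of these in the values of Dbi and the carriers was not tested.

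The probe sets whose averages followed most closely those of Dbi and Fabp2 were sought among 21366 probe sets with a single symbol, by the distance between averages after subtracting each gene's own mean over the 3 groups. Nearest to Dbi were Gpihbp1, which anchors lipoprotein lipase to capillaries (6.02 in SAMR1, 5.43 in SAMP8 and 6.53 with TG, distance 0.036), Ccdc7b (4.61, 4.05 and 5.19, distance 0.037) and Rps19bp1 (6.87, 6.31 and 7.40, distance 0.045). A distance of less than 0.25 log2 from Dbi was found for 75 probe sets. Nearest to Fabp2 were the ribosomal protein gene Rps3a1 (12.21, 12.04 and 12.82, distance 0.008), the mediator subunit Med26 (5.34, 5.16 and 5.96, distance 0.008) and the olfactory receptor Olfr974 (3.49, 3.33 and 4.09, distance 0.022). For Fabp2, 702 probe sets lay within that distance. A likeness over 3 averages is shared by many probe sets, as these counts show.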

How the data were processed

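Hippocampal RNA of SAMR1, SAMP8 and TG-treated SAMP8 mice was hybridised to 9 Clariom S Mouse arrays. The authors normalised the scanned arrays with the SST-RMA algorithm of the Transcriptome Analysis Console (version 4.0.1 in the series text, 4.0.2 in the methods). They deposited 2 tables, 1 per comparison, with a log2 average per group and probe set. The SAMP8 average was the same in both (largest difference 0.0). The tables also hold the authors' fold changes, p-values and adjusted p-values, which were not used. How the averages were formed is not given in the sources used here. The number of arrays limits their precision, and array signal near background can understate a difference. A description in the sample records that names a cell line goes against their tissue and was not used.

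Differences of averages were computed in Python 3.11.15 with pandas 2.3.3 and numpy 2.4.6, and figures drawn with matplotlib 3.10.9. Counting of probe sets past the limit was tested on simulated data. Gene positions come from RefSeq on GRCm38, the build of the array annotation, where all 7 genes were found. Of 216 genes on 22 lists, 208 had a probe set under that symbol alone. Some genes of these groups are not reported here, and the counts and medians of their lists leave them out. No sequences were used here.

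The members, the lists and the limit were chosen with earlier results of these data known. Named were the 7 genes, their relatives, genes of the other pathway lists past 1.5-fold in any comparison, the 2 highest markers of a list and those past the limit, and the 3 probe sets nearest to Dbi and to Fabp2. Markers are named for the cell types that bear on the 7 genes and otherwise in part. Alternatives were 3 other centrings or scalings, a floor, a filter on low averages, counting by symbol and other fold limits.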

Additional observations from a re-analysis of the deposited data

How the results depend on the processing

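The count of the 7 genes past the limit followed the limit itself. For TG-treated SAMP8 against SAMP8 it was 3 at 1.5-fold, and at 1.1-fold, the fold limit of the study, which also set a limit on p not used here, it was 6, of which 5 were higher, beside 32.4% of all probe sets higher and 31.0% lower. At 2-fold it was 1 (Dbi), beside 0.437% higher and 0.324% lower. For SAMP8 against SAMR1 the count of 1 became 6 at 1.1-fold, beside 33.0% higher and 32.5% lower. It was 0 at 1.6-fold, beside 3.28% and 4.29%, and at 2-fold, beside 0.797% and 1.43%. It was also 0 with averages centred on the median of all probe sets (6.21% and 4.96%) or of the neuron markers (9.16% and 3.84%). For TG-treated SAMP8 against SAMR1 the count of 2 became 4 at 1.1-fold, beside 31.6% higher and 33.3% lower, 4 at 1.4-fold, beside 8.4% and 7.93%, and 1 at 1.6-fold and 2-fold. It was 3 after quantile normalization, where Fabp7 was also past the limit (-0.66), and 2 with centring on the neuron markers, where Fabp2 was inside it (0.53) and Fabp7 past it (-0.68). For this comparison the shares over all probe sets at 1.6-fold, at 2-fold and under these scalings are not given, and nothing is read from those counts. The limits of 1.4 and 1.6 and the background of like genomic span were chosen after seeing the data.

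Centring on the neuron markers gave TG differences from SAMP8 of 0.93 log2 for Dbi, 0.57 for Fabp2, then inside the limit, and 0.70 for Fabp3, because it moves every difference by 0.22. The split of all probe sets past the limit moved from 4.48% higher and 3.74% lower to 1.41% and 11.8%, and for SAMP8 against SAMR1 from 5.0% and 6.08% to 9.16% and 3.84%. The centre was the median level of the markers in each group, not their own differences, and it did not hold them level. Their median TG difference from SAMP8 was 0.12 before this centring and -0.11 after. For SAMP8 against SAMR1 it was 0.20 before and 0.32 after. Calls that change under it thus do not show what constant neuron markers would give. Of 120 member differences under an alternative, 101 moved by less than 0.1 log2, and none past the limit changed sign. Many could not move. With 1 probe set per gene, counting by symbol (21 of 21 the same) and the filter (15 of 15) leave each value as it is. The floor reaches Fabp1 alone, and centring on the median of all probe sets is a small constant shift. Quantile normalization left 16 of 21 the same and centring on the neuron markers 7 of 21. The filter on the lowest 25% of averages removed Fabp1 and Fabp4. No paired analysis was possible because the tables hold 1 average per group, and no replicate could be left out for the same reason.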
